A study of Mus musculus with 18 samples.

Results

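Of the 18 mouse arrays in this series, 6 came from tumours of control mice, and these 6 arrays held tumours of 2 kinds. The kinds were chosen by the measured level of Hoxd13, a homeobox gene of the hindgut. Control replicates 9 (male) and 15 (female) had a Hoxd13 log2 value of 7 or more and are called colon-type here. Control replicates 7 and 8 (male) and 13 and 14 (female) lay below 7 and are called small-intestinal-type. The lowest value inside the threshold was 8.25 in replicate 9, and the highest value outside it was 5.30 in replicate 8. Because measured values chose the groups, and because 2 arrays stand against 4, the differences between the kinds are described without a test. A gene is said to lie higher or lower without overlap where both colon-type arrays lay above, or below, all 4 small-intestinal-type arrays.

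The series compared tumours and intestinal epithelial cells with and without Stat3, a transcription factor activated by cytokines, and asked whether tumours of APCmin mice need it to progress. In APCmin mice a mutation of Apc leaves the WNT pathway aberrantly active. The control tumours carried floxed Stat3 (Stat3fl/fl) with no Cre named in their labels. In the Stat3-deleted tumours (Stat3-/-), a Cre recombinase under the Villin promoter, which is active in intestinal epithelium and not in the stroma, removed the gene. There were 3 control and 3 Stat3-deleted tumour arrays for each sex, and 3 control and 3 Stat3-deleted epithelial cell arrays. Age, gut segment and batch are not given, and nothing says that samples of a group came from separate animals. The labels of all 18 samples, epithelial cells included, carry 1 description that names a colorectal tumour induced by azoxymethane and dextran sulphate in the APCmin model, whereas the series text describes APCmin/+ tumours that arise mainly in the small intestine. No label sets replicates 9 and 15 apart from the other control tumours.

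As background, the gut keeps a record of position in its HOX genes, which lie in 4 clusters and are read in order along the body axis, so that members numbered 10 to 13 are active towards the hindgut. The absorptive cells of the small intestine digest and take up sugars, peptides and fat under factors that include GATA4. The colon absorbs salt and water and expresses carbonic anhydrase 1 (Car1).

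Car1 and Gata4, which the rule did not use, divided the 6 arrays as Hoxd13 did. Hoxd13 read 8.25 and 9.10 in replicates 9 and 15, against 4.98, 5.30, 4.92 and 4.82 in replicates 7, 8, 13 and 14. Car1 read 10.90 and 10.24, against 4.69, 5.05, 4.48 and 4.61, which is a difference of 5.86 on the log2 scale or 58.2-fold. Gata4, which specifies the proximal small intestine, ran the other way, with 6.92 and 6.84 against 9.18, 8.86, 9.37 and 9.36. No array was intermediate in Car1 or Gata4. Stat3 itself read 10.11 and 10.35 in the colon-type arrays and 10.08, 10.15, 10.08 and 10.03 in the others, so the groups overlapped, while the 6 Stat3-deleted tumours read 7.74 to 8.46. Whether the Stat3 probes lie in the deleted exons was not tested. The epithelial marker Epcam differed by -0.03 and Cdh1 by -0.12 between the kinds, whereas Krt20, a keratin of mature absorptive cells, read 9.90 and 9.81 against 11.75, 11.86, 11.72 and 11.70. These are bulk samples, in which fewer cells of a type and less RNA per cell cannot be told apart.

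Over all probe sets, replicates 9 and 15 correlated with each other at 0.989, and with small-intestinal-type arrays at 0.948 to 0.981. The 4 small-intestinal-type arrays correlated with one another at 0.961 to 0.992. The lowest of these values involved replicate 8, which stood apart within its kind in genes described below, and counts were therefore repeated without it. Array medians lay between 5.88 and 6.07 on the log2 scale, and the number of arrays limits the precision of every value here.

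Of 16860 genes analysed, 413 (2.45%) lay higher in the colon-type arrays without overlap and with a difference of means of at least 1 (log2), that is 2-fold. By the same rule 405 (2.40%) lay lower. Without the minimum difference, 3163 genes (18.8%) lay higher without overlap and 2564 (15.2%) lower, and these shares are the background against which the members of a gene list that did not overlap are read below. The median size of the difference was 1.34 among the 413 higher genes and 1.47 among the 405 lower ones. The largest differences were those of Car1 upward and of the sugar-digesting enzyme Sis downward. Without replicate 8 the counts were 341 higher and 460 lower.

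**Figure D1:**
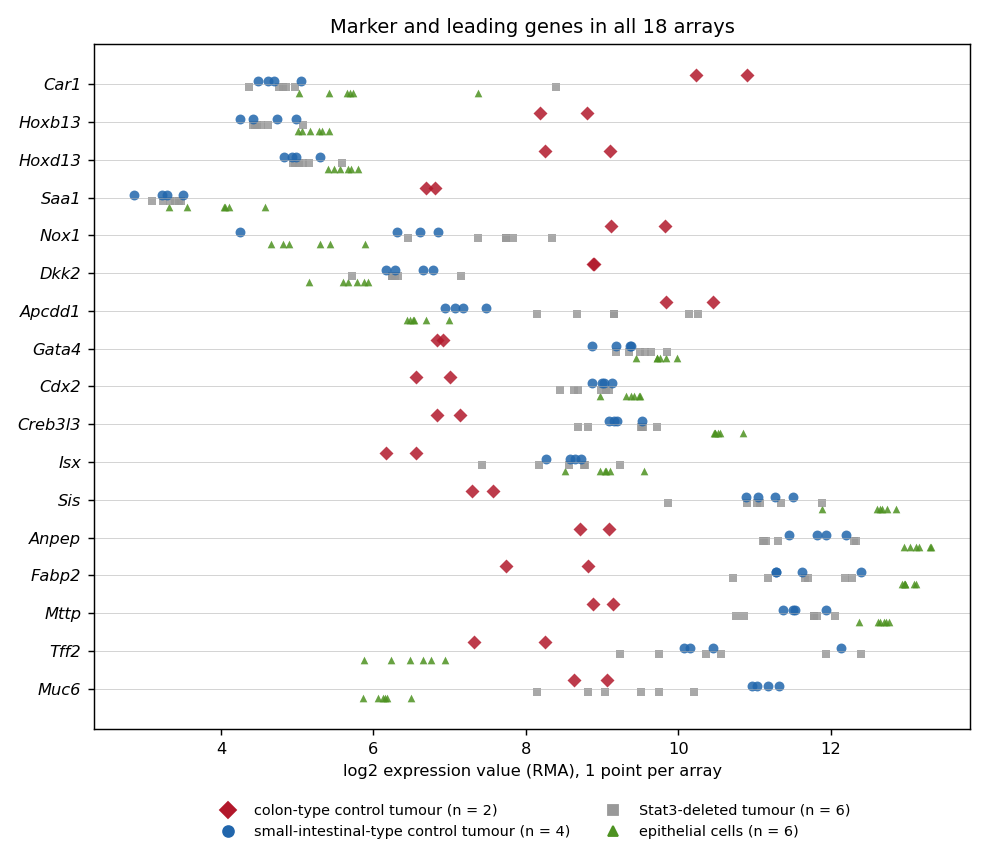
Log2 values of marker and leading genes in all 18 arrays, with 1 point per array: diamonds for the 2 colon-type and circles for the 4 small-intestinal-type control tumours, squares for Stat3-deleted tumours and triangles for epithelial cells. In each gene drawn the diamonds lie beyond all circles, because such genes were picked for the plot; among the squares, 1 array reaches 8.40 in Car1.

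Each sex held 1 colon-type and 2 small-intestinal-type control tumours, so the difference could be taken in males and in females from arrays that share none. Across the 16860 genes the male and the female difference correlated at r = 0.746 and had the same sign in 11841 genes. This is a description across genes, which are not independent, and whether the arrays of both sexes were normalised together is not given. In male replicate 9, 585 genes lay above both other male control tumours and at least 2-fold above their mean. Of these, 278 were also at least 2-fold above the mean of the others in female replicate 15, and 571 had the same sign. Of the 540 such lower genes in the male, 299 were at least 2-fold lower in the female, and 521 had the same sign. Selection in the female array gave 463 higher genes, of which 278 held in the male by 2-fold, and 401 lower genes, of which 300 did. Car1 differed by 6.03 in males and by 5.69 in females, and Sis by -3.71 and -3.79.

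**Figure D2:**
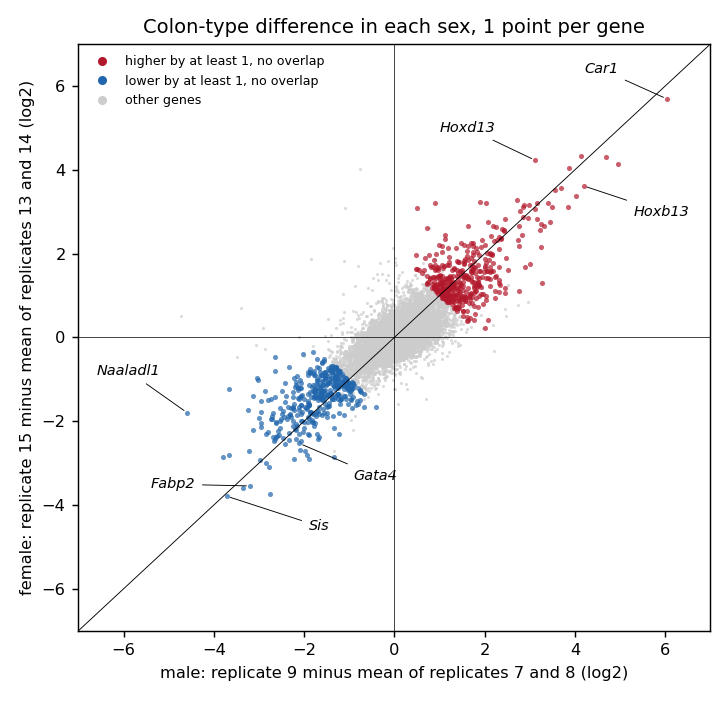
Difference between the colon-type array and the mean of the 2 small-intestinal-type arrays of the same sex, in log2 units, for males (horizontal) and females (vertical), with 1 point per gene and the line of equality. Coloured genes did not overlap between the kinds and had a difference of means of at least 1 in the pooled comparison. Car1 sits far up in both sexes, and Sis and Fabp2 far down, while the place of Hoxd13 follows from the choice of the arrays.

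The HOX genes differed at the hindgut end of 3 of the 4 clusters. Apart from Hoxd13, on which the arrays were selected, 11 genes numbered 10 to 13 were measured. Of these, 7 lay higher without overlap, 5 of them by at least 2-fold, and 0 lay lower. Their median difference was 0.98, against -0.0001 over all genes. Hoxb13 read 8.80 and 8.19 in replicates 9 and 15, against 4.25, 4.98, 4.42 and 4.73. Hoxa13 read 6.84 and 6.72, against 4.94, 5.26, 5.10 and 5.09. In both genes the gap to the nearest small-intestinal-type array was more than 1.

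Within the D cluster, Hoxd13 aside, the difference was 0.49 for Hoxd12, 1.65 for Hoxd11 and 1.75 for Hoxd10. In the A cluster it was 1.68 for Hoxa13, 0.98 for Hoxa11, 1.90 for Hoxa10 and 1.26 for Hoxa9. Hoxb9 read 8.50 and 8.08, against 5.96, 6.63, 5.78 and 5.77. The 4 HOXC members numbered 10 to 13 all overlapped, with differences from -0.30 (Hoxc12) to -0.02 (Hoxc11). Among the 25 measured HOX genes numbered 1 to 9, 3 lay higher without overlap (Hoxb9, Hoxa9 and Hoxa6, the last by 0.29). Another 4 lay lower (Hoxc5, Hoxd3, Hoxd1 and Hoxc6, by -0.33 to -0.25), and the median was -0.17. Over all genes the shares were 18.8% higher and 15.2% lower, so these 2 counts do not set the list apart. In the 6 Stat3-deleted tumours Hoxb13 read 4.41 to 5.08 and Hoxd13 4.95 to 5.59, so none of them reached the colon-type arrays.

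**Figure D3:**
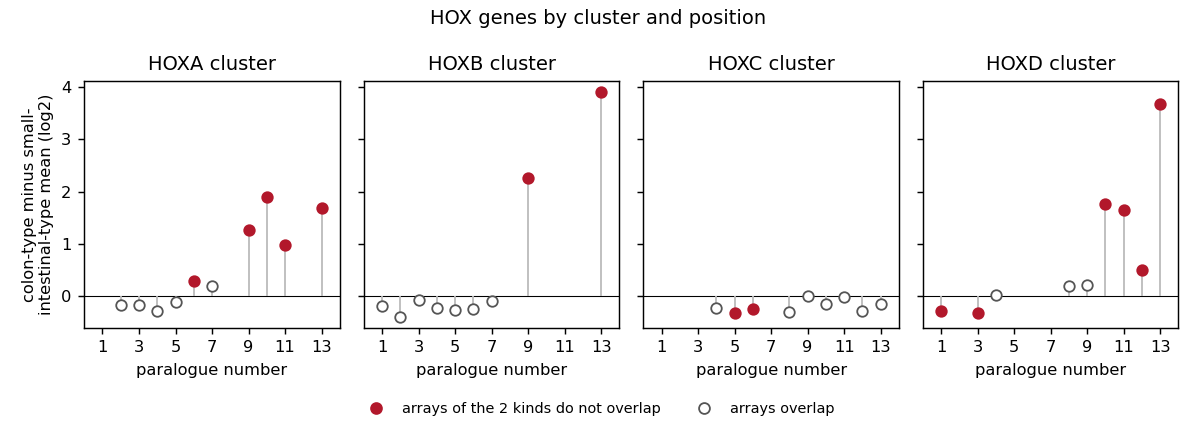
Difference between the colon-type and small-intestinal-type means (vertical axis, log2) for each measured HOX gene by its paralogue number (horizontal axis), with 1 panel per cluster. Filled points are genes whose arrays did not overlap between the kinds; Hoxb13 stands at 3.90 and Hoxb9 at 2.25, the height of Hoxd13 follows from the choice of the arrays, and the HOXC genes numbered 10 to 13 lie near 0 as open points.

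A microRNA gene inside the HOXB cluster differed in the same direction as Hoxb13 and Hoxb9. Mir196a-1 lies at chr11:96265164-96265265 of GRCm38.p6, between Hoxb13 (chr11:96194316-96196610) and Hoxb9 (chr11:96271330-96276595). It read 6.67 and 6.57 in the colon-type arrays, against 3.52, 4.12, 3.48 and 3.43, a difference of 2.98. Mir196b, whose gene lies in the HOXA cluster at chr6:52230081-52230165, differed by 0.10 and overlapped. In the other direction, Mir215 read 3.86 and 4.04, against 5.78, 6.78, 5.18 and 5.99, and Mir192 read 4.12 and 3.95, against 4.81, 5.58, 4.21 and 4.64. Of the 149 microRNA genes analysed, 4 lay higher and 11 lower without overlap, and Mir196a-1 and Mir215 were the only ones to do so by at least 2-fold. Both counts are below the shares over all genes, 18.8% higher and 15.2% lower. These probe sets read RNA from the gene and do not tell a precursor from the mature microRNA. The mature forms are printed because they show which genes share a target-recognition seed (bases 2 to 8, in capitals), with sequences and positions from RefSeq on GRCm38.p6; 130 of the 149 genes matched that table by gene ID.
mmu-miR-196a-5p, chr11:96265187-96265208, plus strand: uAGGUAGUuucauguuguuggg
mmu-miR-196b-5p, chr6:52230129-52230150, minus strand: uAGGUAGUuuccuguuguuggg
mmu-miR-215-5p, chr1:185313610-185313630, plus strand: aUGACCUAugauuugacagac
mmu-miR-192-5p, chr19:6264857-6264877, plus strand: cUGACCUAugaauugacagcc
The first pair share the seed AGGUAGU, and of that pair only the HOXB member differed. Another gene of that name, Mir196a-2 in the HOXC cluster at chr15:102973350-102973434, was not among the genes analysed. The second pair share the seed UGACCUA, and both were lower in the colon-type arrays. For Mir192 the gap between the kinds was only 0.09. It lay below the array's 25th percentile (4.30 to 4.33) in replicates 9, 13 and 15, and Mir215 did so in replicates 9 and 15. Mir196a-1 did so in every small-intestinal-type array and entered the analysis through the colon-type arrays alone. Values that dim cannot be told from background.

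Transcription factors that pattern the gut were mostly lower in the colon-type arrays. Of 23 measured, 15 lay lower without overlap, 11 of them by at least 2-fold, and 2 lay higher, with a median of -0.89. Cdx2, a master regulator of intestinal identity, read 6.55 and 7.0, against 9.13, 9.0, 8.87 and 9.03. Its paralogue Cdx1 overlapped, with a difference of -0.23. Isx, an intestine-specific homeobox factor that represses vitamin A uptake genes, read 6.17 and 6.56, against 8.58, 8.26, 8.65 and 8.73.

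The nuclear receptors of the small intestine shared this direction. Hnf4g read 8.07 and 8.35, against 10.43, 9.80, 10.37 and 10.31, and the more widely expressed Hnf4a differed by -1.05. Creb3l3, a regulator of lipid genes, differed by -2.26, the xenobiotic sensors Nr1i2 and Nr1i3 by -1.50 and -1.49, and Gata6 and Gata5 by -0.65 and -0.51. Pdx1, a factor of the duodenum, read 5.71 and 6.43, against 7.72, 5.98, 7.01 and 7.17, and overlapped because of replicate 8. The 2 higher factors were Tbx3, at 10.17 and 9.79 against 9.09, 9.11, 9.05 and 9.18, and Satb1, with a difference of 0.38.

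Binding motifs of these factors were counted in the 250 bases before each RefSeq start site, on both strands. Of the genes analysed, 13266 had such a promoter, 320 of them lower and 312 higher by at least 2-fold. A gene was counted where any of its promoters held the letters. The CDX letters TTTATG occurred in 14.4% of the lower genes, 8.97% of the higher genes and 8.33% of all. The GATA letters AGATAA occurred in 15.3%, 8.97% and 8.22% of the same genes. The HNF1 letters GTTAAT occurred in 11.2%, 9.62% and 5.56%. The HNF4 core CAAAG occurred in 59.7%, 58.3% and 48.6%, and the TCF letters CAAAGG, which contain that core, in 27.8%, 19.2% and 18.8%. The median GC content, averaged over the promoters of each gene, was 54.8% in the lower, 54.2% in the higher and 58.4% in all genes. Its part in these shares was not tested.

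A match is a run of letters and not a bound site. Of the leading genes, 11 lower and 12 higher ones had a RefSeq promoter, and 3 of each held a CDX or GATA match. The promoter of Sis, the gene with the largest negative difference, holds the CDX letters near its start and is shown beside that of Saa1, a higher gene that also holds them, on the opposite strand as CATAAA (matches in capitals, sequence from RefSeq on GRCm38.p6, 5′ to 3′ on the strand of the gene).
Sis, chr3:72967864-72968113, minus strand: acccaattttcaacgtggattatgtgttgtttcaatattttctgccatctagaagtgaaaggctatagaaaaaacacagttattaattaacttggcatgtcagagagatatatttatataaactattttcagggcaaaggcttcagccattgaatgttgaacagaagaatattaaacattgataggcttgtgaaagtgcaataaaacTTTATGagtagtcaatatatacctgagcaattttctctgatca
Saa1, chr7:46742981-46743230, minus strand: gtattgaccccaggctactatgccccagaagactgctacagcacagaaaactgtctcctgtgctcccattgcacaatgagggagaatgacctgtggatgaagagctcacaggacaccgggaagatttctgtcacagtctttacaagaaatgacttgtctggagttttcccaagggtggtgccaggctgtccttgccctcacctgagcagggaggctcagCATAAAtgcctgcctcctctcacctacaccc

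Genes of colonic epithelium were partly higher. Of 32 measured, 15 lay higher without overlap, 10 of them by at least 2-fold, and 5 lay lower, with a median of 0.57. The list mean per array was 7.38 to 7.56 in colon-type and 6.52 to 7.03 in small-intestinal-type tumours. It was 6.04 to 7.21 in Stat3-deleted tumours. In the epithelial cell arrays it was 7.16 to 7.55, which overlaps the colon-type range, so this level was not particular to the pair. Slc6a14, an amino acid carrier, read 8.31 and 7.42, against 5.45, 4.85, 4.31 and 4.88. Tgm3, a transglutaminase, read 8.70 and 7.61, against 5.30, 5.61, 5.45 and 5.45. The acute-phase gene Saa1 read 6.81 and 6.69, against 3.23, 3.29, 3.50 and 2.85. All 3 were higher by 2.71 or more in the mean of the colon-type arrays.

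Atp12a, the colonic proton-potassium pump, read 7.80 and 6.55, against 4.64, 5.17, 4.94 and 4.82. Pyy, a hormone of distal enteroendocrine cells, read 9.12 and 9.42, against 7.48, 7.47, 6.47 and 7.06. The gasdermins Gsdmc2 and Gsdmc4, which belong to a family of near-identical copies whose probes may be shared, differed by 2.56 and 3.0, with replicate 7 the nearest of the others at 8.77 and 7.79. Not every colonic gene followed. Slc26a3, the chloride-bicarbonate exchanger of the colon surface, read 6.04 and 6.22, against 8.49, 7.82, 7.91 and 7.82, and Car4 differed by -0.95. The colonic water channel Aqp8 (0.04) and the sodium-coupled carrier Slc5a8 (0.28) overlapped.

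Salt, water and bicarbonate transport genes went both ways. Of 31 measured, 7 lay higher without overlap, near the share of 18.8% over all genes. Another 13 lay lower, against 15.2% over all genes, and the list median was -0.24. Besides Car1 and Atp12a, the higher ones included Aqp4 (0.97), Scnn1b, a subunit of the epithelial sodium channel (0.88), and Slc9a3, the sodium-proton exchanger (0.47). The lower ones included Car12 (-1.81), the bicarbonate carriers Slc4a4 (-1.69) and Slc26a6 (-1.67), Aqp11 (-1.57) and Slc9a2 (-1.44). Cftr, the chloride channel, read 7.74 and 8.10, against 10.40, 7.89, 9.54 and 9.57, so only replicate 8 overlapped.

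Several leading genes of the colon-type arrays belong to no intestinal transport list. Smpx, a small protein of striated muscle, read 8.73 and 8.05, against 3.89, 3.67, 3.73 and 4.09. Mt4, a metallothionein of squamous epithelium, read 10.37 and 9.96, against 5.23, 6.14, 5.61 and 5.71. Cadps, a protein of dense-core vesicle release, read 9.30 and 9.35, against 5.26, 5.08, 4.77 and 5.30. The differences of these 3 genes were 23.3-fold, 22.5-fold and 18.6-fold.

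Asprv1, a protease of the skin, read 10.65 in both colon-type arrays, against 6.67, 6.92, 6.57 and 6.64. Slc7a11, the cystine-glutamate exchanger, read 9.96 and 9.97, against 6.72, 6.38, 6.52 and 7.0. Ptn, a heparin-binding growth factor, read 9.93 and 9.51, against 6.66, 6.25, 6.28 and 6.49. The remaining leading genes with higher values were Sval1 (3.70), the neutrophil-attracting chemokine Cxcl5 (3.19), the arachidonate lipoxygenase Alox12 (3.10) and the homeobox gene Irx4 (3.09). In the Stat3-deleted tumours Smpx read 3.56 to 4.59, Irx4 5.37 to 6.07 and Alox12 5.64 to 6.57, below both colon-type arrays throughout. Ptn spread from 6.36 to 9.34 there and Cadps from 5.70 to 7.59. Because Asprv1 and Mt4 are known from skin, squamous epithelium was examined as a list: of 17 measured genes, 5 lay higher and 4 lower without overlap (median -0.07), Krt17 by 1.60 and Krt14 by 1.03, while Krt5 (-0.14) and Trp63 (0.03) overlapped.

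The absorptive programme of the small intestine was lower in the colon-type arrays as a block. Of 18 measured brush border genes, 15 lay lower without overlap, 14 of them by at least 2-fold, and 0 lay higher, with a median of -1.98. Sis, which digests sucrose and isomaltose, read 7.57 and 7.29, against 11.04, 11.51, 10.89 and 11.27, a 13.5-fold difference. The peptidase Enpep read 7.45 and 6.71, against 10.60, 11.01, 10.39 and 10.23. Anpep, another peptidase, read 9.10 and 8.72, against 11.94, 12.20, 11.82 and 11.45.

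Lct, which digests milk sugar, read 6.88 and 5.60, against 9.38, 8.16, 9.43 and 7.56. Naaladl1 differed by -3.19, Enpp7 by -2.50, Mep1b by -2.12 and Alpi, the intestinal alkaline phosphatase, by -1.58. Villin itself, Vil1, differed by -0.96. Mep1a (-1.57), Akp3 (-1.34) and Tmprss15 (-0.71) overlapped. The epithelial cell arrays had the highest values in this list, with a list mean per array of 11.21 to 11.90, against 9.25 to 10.07 in small-intestinal-type, 8.48 to 10.39 in Stat3-deleted and 7.44 to 7.50 in colon-type tumours.

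Nutrient carriers followed, with 17 of 26 lower and 2 higher without overlap (median -1.32). The neutral amino acid carrier Slc6a19 read 6.66 and 6.05, against 9.46, 11.20, 8.81 and 8.91, highest in replicate 8. The peptide carrier Slc15a1 differed by -2.53, the fructose carrier Slc2a5 by -2.31, the glucose carriers Slc2a2 by -2.11 and Slc5a1 by -1.91, and the iron carrier Slc11a2 by -1.08. The 2 higher ones were the calcium channel Trpv6, at 7.0 and 7.39 against 6.44, 5.34, 5.04 and 5.06, and Slc36a1 (0.29).

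Lipid absorption was the list with the largest share of lower members: 20 of 22 lay lower without overlap, 19 of them by at least 2-fold, with a median of -1.86. Fabp2, a fatty acid binding protein of enterocytes, read 8.81 and 7.74, against 11.63, 12.39, 11.28 and 11.29. Mttp, which loads fat onto lipoproteins, read 8.88 and 9.14, against 11.50, 11.93, 11.53 and 11.37. The cholesterol carrier Npc1l1 read 7.15 and 7.61, against 10.21, 10.01, 9.85 and 9.64. Uptake (Cd36 -1.55), re-esterification (Mogat2 -1.82, Dgat1 -1.63) and the apolipoproteins (Apoc3 -2.94, Apoa1 -2.17, Apob -2.11, Apoa4 -1.92) thus lay in the same direction. The single higher member was Pnliprp2, a pancreatic-type lipase, at 10.83 and 10.65 against 8.70, 9.54, 8.95 and 9.14, and Bco1 (0.02) overlapped.

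Bile acid handling, a function of the ileum, varied within the small-intestinal-type arrays. Of 9 measured genes, 4 lay lower without overlap and 5 overlapped. Fabp6, the ileal bile acid binding protein, read 4.78 and 7.18 in replicates 9 and 15, and 7.92, 11.10, 4.82 and 8.53 in replicates 7, 8, 13 and 14. The uptake carrier Slc10a2 read 6.23 and 6.40, against 6.96, 7.72, 5.28 and 6.29. Replicate 8 was therefore the highest and replicate 13 the lowest small-intestinal-type array in both genes, and in Slc10a2 replicate 13 lay below both colon-type arrays.

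The export carriers did not overlap. Slc51b read 6.06 and 6.50, against 7.90, 10.50, 7.79 and 8.02, and Slc51a 5.95 and 6.55, against 8.24, 9.68, 7.46 and 7.66. The bile acid receptor Nr1h4 differed by -1.31 and the carrier Abcc3 by -0.82. Fgf15, the hormone the receptor induces, read 5.82 and 6.29, against 5.55, 7.31, 5.79 and 5.78, so only replicate 8 lay above the colon-type arrays.

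Drug-metabolising genes were lower as well, with 25 of 38 lower and 2 higher without overlap (median -1.15). Cyp3a11 read 6.22 and 3.87, against 7.60, 10.36, 7.20 and 8.02, and Cyp3a25 7.17 and 5.39, against 9.43, 9.36, 8.48 and 8.08; members of this family are similar in sequence. Cyp4f14 differed by -2.53, Sult1d1 by -2.48 and Aldh1a1, which makes retinoic acid, by -2.37. Gsta3 (1.04) and Ces1g (1.27) were higher. Of 20 genes of fatty acid oxidation and ketone synthesis, 11 lay lower and 1 higher (median -0.48), led by Ppara, their nuclear receptor, at 5.65 and 5.86 against 7.30, 8.28, 7.16 and 7.08.

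Secretory lineages differed by lineage. Among goblet cell genes 13 of 22 lay lower and 2 higher without overlap (median -0.86). The mucin Muc2 read 11.21 and 10.85, against 12.58, 12.44, 11.77 and 11.90. Spdef, the factor for goblet cell maturation, read 7.0 and 7.21, against 8.77, 8.42, 8.60 and 8.75. Zg16 differed by -1.54, Tff3 by -1.50 and Atoh1, the factor that opens the secretory fate, by -0.85, while Clca1 (0.26) and Retnlb (-0.55) overlapped.

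Paneth cells, which are cells of the small-intestinal crypt, gave 6 of 12 lower and 3 higher. Defa24, a cryptdin, read 7.02 and 8.0, against 9.57, 10.05, 9.23 and 9.76, and Defa39 differed by -3.33; cryptdin genes are near-identical copies whose probes may be shared. Lyz1, the Paneth cell lysozyme, stayed bright in both kinds, at 12.32 and 12.27 against 12.77, 12.70, 12.66 and 12.94. Among enteroendocrine genes 11 of 21 lay lower and 3 higher: Gip, a hormone of the proximal intestine, differed by -1.62 and Cck by -1.17, whereas Pyy (2.15), the islet factor Isl1 (2.53) and the colonic hormone Insl5 (0.46) were higher. Tuft cell genes gave 1 higher and 2 lower of 14.

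Mucins and secreted peptides known from the stomach were present in the small-intestinal-type arrays and lower in the colon-type ones. Of 14 measured stomach genes, 9 lay lower without overlap and 0 higher, with a median of -1.32. Tff2 read 8.26 and 7.31, against 12.14, 10.07, 10.46 and 10.16. Muc6, the mucin of deep glands, read 9.07 and 8.63, against 11.32, 10.96, 11.03 and 11.18, and the gastrokine Gkn3 read 9.35 and 8.48, against 10.86, 10.31, 10.76 and 10.81. The 6 epithelial cell arrays, 3 of them Stat3-deleted, were low in all 3 genes (5.87 to 6.94, 5.86 to 6.49 and 5.08 to 5.69). The genes of acid secretion Atp4a (-0.42) and Atp4b (-0.24) overlapped, and Sox2, a factor of the stomach, differed by 0.04.

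Glycan synthesis genes gave 9 of 21 lower and 2 higher. The sialyltransferase St3gal4 read 8.16 and 8.50, against 10.65, 10.13, 10.20 and 9.96, and the mucin-branching enzyme Gcnt3 7.38 and 7.35, against 9.41, 9.12, 9.08 and 8.86. B3galt5 was higher, at 9.10 and 8.85 against 7.92, 6.25, 8.05 and 6.81.

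Targets of WNT signalling, the pathway that the Apc mutation activates, were higher in 16 of 28 genes without overlap and lower in 2, with a median of 0.53. The higher genes included feedback inhibitors of the pathway. Apcdd1 read 10.46 and 9.83, against 6.94, 7.48, 7.07 and 7.17. Dkk2 read 8.90 and 8.88, against 6.78, 6.64, 6.17 and 6.28. Wif1 read 11.29 and 11.31, against 9.67, 9.52, 9.90 and 9.83.

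Axin2, a widely used target, read 9.999 and 9.86, against 8.73, 9.34, 8.64 and 8.88. Lef1 differed by 1.12, Bmp4 by 1.05, Prox1 by 0.94, Rnf43 by 0.78 and Myc by 0.49. Among other members of this list, Lgr5 (-0.44), Sox9 (0.00) and Cd44 (-0.18) overlapped, Ascl2 differed by 0.63, and Olfm4, which marks stem cells of the small intestine, read 5.86 and 6.62, against 9.98, 8.19, 9.51 and 9.12. Of 19 proliferation genes, 1 lay higher and 1 lower. In replicate 8 the list mean of proliferation genes was 7.78, against 8.73 to 8.96 in the other 5 control tumours. Of 17 genes of glycolysis and hypoxia, 6 lay lower and 0 higher, led by the tumour-associated carbonic anhydrase Car9 at 7.96 and 8.15 against 10.13, 9.80, 10.10 and 10.25.

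Antimicrobial and acute-phase genes were split, with 8 of 26 higher and 6 lower without overlap, against 18.8% higher and 15.2% lower over all genes. Nox1, a superoxide-producing oxidase of colonic epithelium, read 9.12 and 9.83, against 6.31, 4.25, 6.85 and 6.61. Lcn2, an iron-binding defence protein, read 11.49 and 11.70, against 10.85, 10.02, 11.05 and 11.08. Reg3b, a lectin directed at bacteria, read 11.26 and 11.70, against 12.83, 12.56, 13.10 and 12.81. Serpina3n differed by -1.33 and Lrg1 by -0.71.

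Genes of the STAT3 pathway gave 5 higher and 5 lower of 27, with a median of 0.15. These counts are near the shares over all genes, 18.8% higher and 15.2% lower. Il22ra1, the receptor for interleukin 22, read 7.56 and 7.68, against 8.73, 9.93, 8.92 and 8.88, while Osmr, the oncostatin receptor, read 7.74 and 8.43, against 7.35, 6.92, 7.05 and 7.26. The feedback inhibitor Socs3 (0.30) and Stat3 overlapped.

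Genes of other cell types moved with the kinds, and their part in the differences above was not tested. Macrophage and dendritic cell genes lay higher without overlap in 13 of 16 and lower in 1, with a median of 1.14, and their list mean per array was 7.58 to 7.89 in the colon-type and 6.33 to 7.04 in the small-intestinal-type tumours. Lyz2, a macrophage lysozyme, read 11.16 and 11.50, against 9.77, 9.11, 9.94 and 9.93. C1qc, of the complement, read 9.24 and 9.74, against 7.91, 7.72, 8.60 and 8.26. Neutrophil genes were higher in 6 of 13 and lower in 0, but their median was 0.08 in males and 1.08 in females. Without replicate 15 the median of that list had the opposite sign.

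Fibroblast and matrix genes were higher in 10 of 17 and lower in 0 (median 0.44; list means 8.76 to 8.84 against 8.13 to 8.49), with Fn1 at 11.70 and 11.75 against 10.39, 9.61, 10.15 and 10.16. Smooth muscle genes were lower in 8 of 14 and higher in 0 (median -0.49; list means 7.05 to 7.08 against 7.55 to 7.74), with Myh11 at 7.67 and 7.74 against 9.12, 9.37, 8.93 and 8.65. Genes of enteric neurons and glia were lower in 8 of 13 and higher in 0, with Vip at 4.13 and 4.15 against 5.70, 6.24, 5.64 and 5.53. Endothelial (2 higher and 3 lower of 14), T and NK cell (2 and 1 of 17), B and plasma cell (2 and 0 of 11) and mast cell genes (2 and 0 of 11) mostly overlapped. Of adipocyte genes 3 of 7 and of pancreatic acinar genes 3 of 13 were lower and 0 higher, among them Pck1, Cidec, Zg16 and Clps, which intestinal epithelium also expresses. Over all genes 15.2% lay lower without overlap.

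Interferon response genes were higher without overlap in 10 of 18 and lower in 0, with a median of 1.14. The small-intestinal-type arrays differed widely here. Usp18 read 9.07 and 9.30, against 6.93, 6.32, 8.19 and 8.04, and Ifit1 9.08 and 9.06, against 7.69, 6.46, 8.67 and 9.0. The list mean was 8.26 and 8.88 in replicates 9 and 15, against 7.11, 6.24, 8.23 and 8.15 in replicates 7, 8, 13 and 14, so the female pair came close to replicate 9. The median difference was 1.65 in males and 0.65 in females. The Stat3-deleted tumours had list means of 8.27 to 9.46. Antigen presentation genes overlapped in 12 of 13, and B2m was higher by 0.81. Early response and heat shock genes, which rise during tissue handling, gave 3 higher and 4 lower of 16. Over all genes the shares were 18.8% higher and 15.2% lower.

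**Figure D4:**
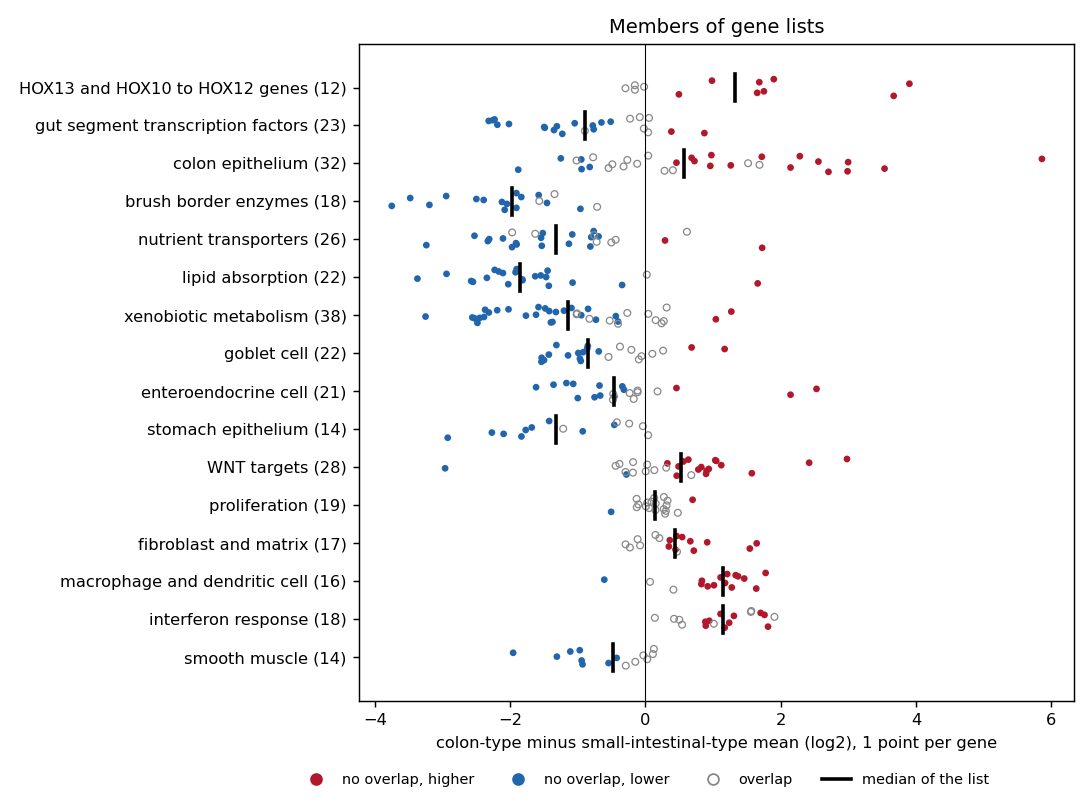
Difference between the colon-type and small-intestinal-type means (horizontal axis, log2) for each member of 16 gene lists, with the number of measured members in brackets and a bar at the list's median. Filled points did not overlap between the kinds and open points did; brush border (median -1.98) and lipid absorption (-1.86) lie furthest left, and the HOX genes numbered 10 to 13 (1.32 with Hoxd13, 0.98 without it), macrophage and interferon lists (both 1.14) furthest right.

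None of the 12 other arrays matched the colon-type pair. For each of the 413 higher and 405 lower genes, an array was counted as on the colon-type side when it lay beyond the midpoint of the means of the 2 kinds. Stat3-deleted female replicate 18 was on that side in 207 of the 413 higher genes (50.1%) and 134 of the 405 lower genes (33.1%). The other 5 Stat3-deleted tumours were on it in 32 to 101 higher and 33 to 113 lower genes, and the 6 epithelial cell arrays in 27 to 35 and 70 to 81. Hoxd13 was 5.07 in replicate 18 and Gata4 9.35, both inside the range of the small-intestinal-type arrays. Replicate 18 also had list means of 7.76 for macrophages and 9.49 for fibroblasts and matrix, where the other Stat3-deleted tumours had at most 6.82 and 8.57; the part of these cells in its position was not tested. Stat3-deleted female replicate 16 had a Car1 value of 8.40, against 4.36 to 4.96 in the other 5, with a Hoxd13 value of 5.02.

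All 6 Stat3-deleted tumours lay below both colon-type arrays in 276 of the 413 higher genes and above both in 336 of the 405 lower genes. All 6 epithelial cell arrays lay below both colon-type arrays in 387 of the 413 higher genes. In the 405 lower genes they lay above both colon-type arrays in 337, and above all 4 small-intestinal-type tumours in 212. These genes were picked because the colon-type arrays are extreme in them, so the counts against those arrays follow in part from that choice. The same counts over all genes were not made.

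**Figure D5:**
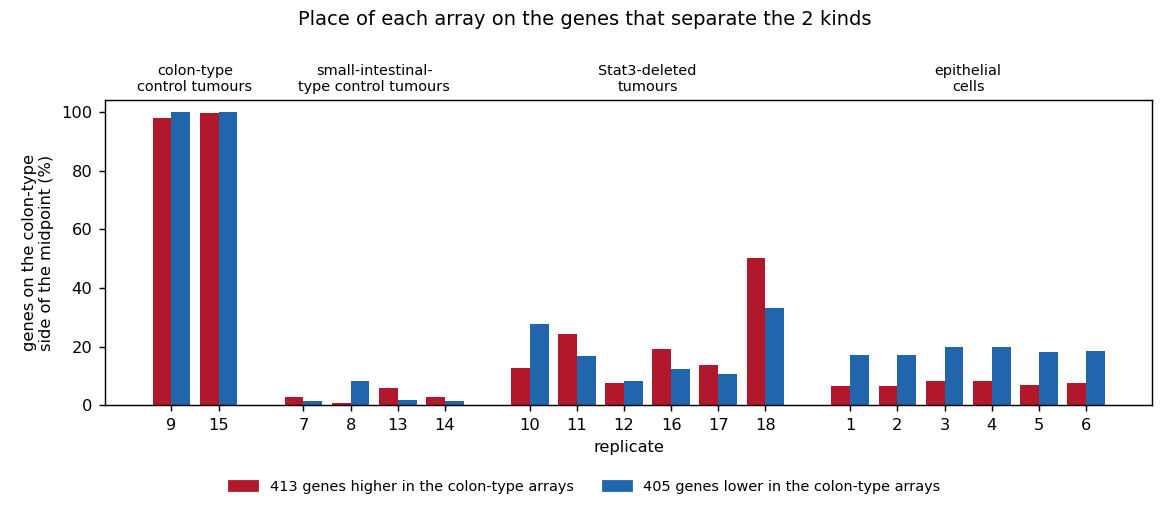
Percentage of the 413 higher and of the 405 lower genes for which each of the 18 arrays lay on the colon-type side of the midpoint between the kinds. The 6 control tumours define the midpoint; among the other arrays, Stat3-deleted replicate 18 reached 50.1% and 33.1%.

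The colon-type arrays make up 2 of the 6 controls in the comparison that the series was built for. Fitted with limma on all 18 arrays, Stat3 deletion in tumours gave 123 of 17316 genes with an adjusted p under 0.05 (0.710%), 50 higher and 73 lower. Without replicates 9 and 15 it gave 202 (1.17%), 100 higher and 102 lower, and 87 genes were called in both fits. Both fits share the other 4 control tumours and all deleted ones, and the arrays left out were chosen on measured values, so the second set of adjusted p-values is conditional on that choice. Genes with an unadjusted p under 0.05 numbered 2081 and 1749.

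Differences are given as deleted minus control with the standard error, on all arrays and then without the colon-type pair. Stat3 gave -1.98 ± 0.11 (limma adjusted p 4.12e-08) and -1.93 ± 0.12 (7.72e-07), and Reg3b -5.84 ± 0.50 (8.31e-06) and -6.29 ± 0.52 (8.02e-06). Markers of the kinds shrank or turned: Hoxd13 gave -1.11 ± 0.62 (limma adjusted p 0.524) and 0.12 ± 0.14 (0.873), Sis 1.09 ± 0.66 (0.565) and -0.16 ± 0.27 (0.923), and Gata4 1.09 ± 0.40 (0.256) and 0.32 ± 0.14 (0.448). None of these 3 passed in either fit. Hoxd13 chose the arrays left out, so its change between the fits follows from that choice. Sis and Gata4 lay lower in both colon-type arrays, so leaving these out raises their control means by construction.

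Other genes passed only without the pair. Of these, Apcdd1, Slc7a11, Cadps, Pyy, Muc6 and Gkn3 were named because their values separate the kinds. Leaving out the pair shifts their control means and narrows their spread by construction. Their second p-values are therefore no independent test of Stat3 deletion. Apcdd1 gave 1.10 ± 0.57 (limma adjusted p 0.474) on all arrays and 2.09 ± 0.33 (0.00319) without the pair, with control means of 8.16 and 7.17. Slc7a11 gave 0.15 ± 0.57 (limma adjusted p 0.968) and 1.25 ± 0.20 (0.00381), Cadps 0.12 ± 0.75 (0.982) and 1.52 ± 0.31 (0.0211), and Pyy 0.47 ± 0.42 (0.751) and 1.19 ± 0.24 (0.0199). Downward, Muc6 gave -1.12 ± 0.45 (limma adjusted p 0.315) and -1.88 ± 0.29 (0.00290), Fabp6 -2.89 ± 0.76 (0.0946) and -3.60 ± 0.60 (0.00507), and Gkn3 -0.95 ± 0.42 (0.380) and -1.54 ± 0.34 (0.0357). Slc10a2 passed in both, at -2.03 ± 0.24 (limma adjusted p 0.000315) and -2.12 ± 0.22 (9.15e-05), as did B3galt5, at -1.98 ± 0.38 (0.0189) and -1.41 ± 0.28 (0.0200). The call count on all arrays depended on single arrays too. It was 64 without Stat3-deleted female replicate 16, 72 without Stat3-deleted male replicate 11 and 265 without Stat3-deleted female replicate 18. Leaving out 1 small-intestinal-type control gave 182 (replicate 7), 162 (replicate 8), 90 (replicate 13) and 83 (replicate 14). Leaving out 1 colon-type control gave 179 (replicate 9) and 99 (replicate 15). No other pair of controls was left out, so whether the rise to 202 is particular to the colon-type pair was not tested.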

How the data were processed

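RNA was labelled with the Affymetrix whole-transcript kit and measured on 1 array per sample, per the labels. The authors deposited log2 expression values, made with RMA per the submitters' processing notes. The RMA version and library files are not given in the labels, and columns of no sample numbered 0. Of 35556 probe sets, 21789 had 1 symbol, 1621 several and 12146 were not listed; 21698 matched a gene record by ID. Each of 19938 genes was represented by its brightest probe set, judged by the mean of the 18 arrays.

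The 16860 genes above the array's 25th percentile (4.30 to 4.41 in control tumours) in at least 2 of the 6 control tumours were analysed; 17316 genes (at least 3 of 18 arrays) entered limma 3.58.1 in R 4.3.3, with group means for all 18 arrays, an intensity trend and Benjamini-Hochberg adjustment. Scripts were checked on data with known answers. Names were given to Stat3, the markers, the 15 largest differences in each direction without clone numbers, up to 6 members of each of 38 lists, every HOX, segment factor and ileal gene, and the brightest markers of other cell types (list means and the 2 brightest members). Other genes in the text were chosen after their values were seen. The members and lists were chosen with earlier results of these data known. Alternatives changed normalisation, filter, probe set rule, minimum difference and arrays.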

Additional observations from a re-analysis of the deposited data

Results flagged for a closer look

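Among the 4 small-intestinal-type control tumours, 1 array lay far from the other 3 in 20 of the 253 named genes (7.91%), by Dixon's gap test. Chance alone marks about 1 group in 20. In 15 of the 20 genes the array was replicate 8.

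Replicate 8 was high in 4 HOX genes, Hoxa4 at 7.87 (others 6.89 to 6.99), Hoxb6 at 6.22 (5.20 to 5.30), Hoxb7 at 6.35 (5.38 to 5.52) and Hoxd9 at 6.19 (5.47 to 5.51). It was also high in the bile acid genes Slc51b at 10.50 (7.79 to 8.02) and Fgf15 at 7.31 (5.55 to 5.79), and in the hormone granule genes Chgb at 7.82 (7.02 to 7.15) and Chga at 7.85 (6.89 to 7.0). Cyp4b1 was 9.14 (7.74 to 7.79), Il22ra1 9.93 (8.73 to 8.92) and Krt17 5.81 (5.48 to 5.51). It was low in Bub1 at 5.88 (7.95 to 8.26), Ccnd1 at 9.10 (10.36 to 10.44), and the lymphocyte genes Ccl5 at 7.17 (7.94 to 8.02) and Gzma at 5.78 (7.38 to 7.63).

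Replicate 7 was high in Slc26a3 at 8.49 (7.82 to 7.91), Galnt12 at 9.20 (8.85 to 8.89) and the mast cell protease Mcpt2 at 9.84 (7.55 to 7.91), and slightly low in Flt1 at 7.61 (7.64 in the others). Replicate 13 was high in Hoxa7 at 7.16 (6.51 to 6.57).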

How the results depend on the processing

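The counts of 413 higher and 405 lower genes depended most on the minimum difference: they were 3163 and 2564 with none and 63 and 85 with a minimum of 2. Setting the pair against all 10 other tumours gave 273 and 348, of which 227 and 299 were shared with the reported genes. Other normalisations, filters and probe set rules gave 359 to 415 and 393 to 419. Leaving out 1 control tumour gave 341 (without replicate 8) to 547 (without replicate 9) higher and 387 (without replicate 7) to 477 (without replicate 15) lower genes. Of 253 named genes, 210 did not overlap, and 0 of these changed direction under the other normalisations or the mean over probe sets. Omission of 1 array or restriction to 1 sex cannot reverse a gene that does not overlap, so those settings do not check its direction. Of 38 list medians, 1 to 5 changed sign when 1 array was left out, the largest being 0.72 for neutrophils without replicate 15. Stat3 calls, 123 on all arrays, were 202 without the colon-type pair, 43 with 12 tumour arrays in the fit, 134 after quantile normalisation and 112 without a filter. They ranged from 64 to 265 when 1 tumour was left out. No paired analysis was possible because each replicate number occurs once in the series. Dim genes near the array's 25th percentile cannot be told from background.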

Other observations

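Several genes outside the naming rule, chosen after their values were seen, also divided the kinds. The chemokine Ccl25, which attracts lymphocytes to the small intestine and is a leading gene by the rule, read 7.53 and 8.04 in replicates 9 and 15, against 10.55, 10.77, 10.39 and 10.09 in replicates 7, 8, 13 and 14. The butyrophilin-like genes Btnl1 and Btnl2 differed by -2.10 and -2.12, with epithelial cell arrays at 10.20 to 10.98 and 10.36 to 10.88. The genes of T and NK cells mostly overlapped between the kinds.

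Another metallothionein gene differed in the same direction as Mt4: Mt3 read 10.80 and 10.58, against 7.66, 8.45, 7.80 and 8.02. Esr1, the estrogen receptor, read 8.25 and 8.33 in the male and the female colon-type tumour, against 5.48, 6.16, 5.62 and 5.89. Of the matrix metalloproteinase genes, Mmp12 read 8.71 and 8.94, against 7.38, 5.78, 7.42 and 7.37, and Mmp13 10.75 and 11.73 against 9.80, 8.48, 9.75 and 9.83. Mmp3 was high in replicate 15 alone, at 10.003, against 7.49 in replicate 9 and 6.39 to 7.43 in the others. Nlrc5, an activator of MHC class I genes, read 9.49 and 9.99, against 6.73, 5.73, 8.65 and 8.76, and 9.27 to 10.22 in the Stat3-deleted tumours.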
